A study of Mus musculus with 24 samples.

Results

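The cytosolic ribosomal protein genes were examined in RNA from 2 cortical regions of mice, the medial prefrontal (mPFC) and the anterior cingulate (ACC). A row of the count tables was taken as a member when its Ensembl identifier carried a protein-coding symbol made of Rpl or Rps and a digit, or was Rplp0, Rplp1, Rplp2 or Rpsa. Rps6k kinases and pseudogene symbols were left out. This rule gave 85 of 33364 rows: 43 proteins of the large subunit, 31 of the small subunit, 3 of the P-stalk, 7 paralogs and Rps19bp1, which fits the spelling of the rule but encodes a binding partner of a ribosomal protein. The labels give all mice as C57BL/6, 3 months old, and the paper's methods name the strain as C57BL/6J. All had either spared nerve injury (SNI) or a sham operation. In SNI, a neuropathic pain model, the common peroneal and sural branches of the sciatic nerve are cut and the tibial branch is left whole, and in the sham operation no nerve is injured. Tissue was punched 2 weeks later. The 8 groups were the female sham mPFC, female SNI mPFC, male sham mPFC, male SNI mPFC and the same 4 groups of the ACC, with 3 libraries each, 24 in all. Each library came from a pool of animals, so the spread between libraries is that between pools.

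The cytosolic ribosome has a large subunit, which joins amino acids, and a small subunit, which reads the mRNA. Most of its proteins are made from a single functional gene and are needed in equal amounts, and their mRNAs are abundant in nearly every cell. These mRNAs are short, and they begin with a run of pyrimidines, the 5' terminal oligopyrimidine or TOP motif, through which mTOR signalling sets how strongly they are translated. Neurons also carry ribosomal protein mRNAs into axons and dendrites. The copies that reverse transcription has left in the genome as processed pseudogenes are many, which makes reads of these genes hard to place.

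The libraries held 23853845 to 32864391 counts, with a median of 26727282, and the members took 0.771 to 0.922% of them. Levels are given as CPM, counts divided by library size and scaled with TMM factors, and 3 counts, taken as the floor, amounted to 0.0913 to 0.126 CPM. The neuronal markers Snap25, Syt1 and the others of that list summed to 3709 to 5147 CPM. The choroid plexus markers summed to 967.9 CPM in female sham ACC replicate 1 and to 82.6 CPM in male SNI mPFC replicate 2, and to 3.22 to 10.85 CPM in the other 22 libraries. The oligodendrocyte markers summed to 1129 CPM in female SNI mPFC replicate 1, against 2034 to 4263 CPM elsewhere. Where the count of members called without one of these 3 libraries was over 1.5 times higher or lower, it is given beside the result. The 4 deposited tables hold 1 sex and region each, so that table and sex or region cannot be told apart. In bulk tissue, fewer cells of a type and less RNA per cell cannot be told apart either.

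The paralogs show how far reads can be assigned to one gene. The first 60 coding bases of Rps27, of the retrocopy Rps27rt and of Rps27l are printed because they differ in this respect, followed by those of Rpl36a and Rpl36al. They were read from the GENCODE transcripts on GRCm38, and capitals mark bases that differ from Rps27 in the first set and from Rpl36a in the second. Rps27 lies at chr3:90212522-90213651 on the minus strand, Rps27rt at chr9:114982366-114982739 on the minus strand and Rps27l at chr9:66946086-66949516 on the plus strand. Rpl36a lies at chrX:134585654-134588062 on the plus strand and Rpl36al at chr12:69182731-69184083 on the minus strand.
Rps27: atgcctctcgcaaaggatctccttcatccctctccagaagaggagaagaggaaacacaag
Rps27rt: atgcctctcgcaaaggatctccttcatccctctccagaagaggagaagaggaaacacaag
Rps27l: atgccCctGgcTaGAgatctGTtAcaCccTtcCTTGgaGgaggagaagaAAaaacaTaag
Rpl36a: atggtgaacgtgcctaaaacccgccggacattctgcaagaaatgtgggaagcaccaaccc
Rpl36al: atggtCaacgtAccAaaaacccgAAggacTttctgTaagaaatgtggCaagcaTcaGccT
Rps27l differed from Rps27 at 18 of these 60 bases and Rpl36al from Rpl36a at 11. Rps27rt was identical to Rps27 over all 252 coding bases, so reads from that stretch cannot be given to either gene by sequence. Over the coding alignments, identity was 76.2% between Rps27 and Rps27l, 87.7% between Rpl36a and Rpl36al, 85% between Rpl39 and Rpl39l, 73.7% between Rpl3 and Rpl3l, 70.2% between Rpl22 and Rpl22l1 and 55.1% between Rpl7 and Rpl7l1. The share of a member's mRNA windows of 100 bases that also occur in annotated transcripts of another gene had a median of 40.6%. It reached 98.4% for Rps27, 91.6% for Rpl10 and 79.2% for Rpl9. Copies without an annotated transcript were not searched. For these members the counts depend on how reads with several matches were treated, which the sources used here do not give.

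The start sites are shown for 12 of the members that lead the comparisons of region and sex. Others that lead them, such as Rplp1, Rpl3 and Rpl5, are not shown. Each window holds 30 bases, 15 on each side of the RefSeq start on GRCm38.p6, and capitals mark its longest unbroken run of C and T. Rps27, Rps28, Rpl39, Rpl38, Rpl37a and Rpl35a have short coding sequences, and Rps2, Rpsa, Rpl13, Rpl10a, Rps19 and Rpl14 have longer ones.
Rps27 (chr3:90213634-90213663, minus strand): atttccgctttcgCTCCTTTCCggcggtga
Rps28 (chr17:33824548-33824577, minus strand): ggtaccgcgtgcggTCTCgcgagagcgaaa
Rpl39 (chrX:37085208-37085237, minus strand): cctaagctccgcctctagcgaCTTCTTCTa
Rpl38 (chr11:114668565-114668594, plus strand): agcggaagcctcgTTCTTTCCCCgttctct
Rpl37a (chr1:72711245-72711274, plus strand): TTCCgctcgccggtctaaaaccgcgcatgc
Rpl35a (chr16:33056438-33056467, plus strand): gcggggcgtgcgTCCCacaaggccgcgcgg
Rps2 (chr17:24720048-24720077, plus strand): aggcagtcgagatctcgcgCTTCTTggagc
Rpsa (chr9:120127751-120127780, plus strand): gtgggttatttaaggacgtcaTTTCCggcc
Rpl13 (chr8:123102335-123102364, plus strand): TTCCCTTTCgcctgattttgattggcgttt
Rpl10a (chr17:28328456-28328485, plus strand): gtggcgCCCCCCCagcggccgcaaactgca
Rps19 (chr7:24884577-24884606, plus strand): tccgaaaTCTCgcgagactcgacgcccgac
Rpl14 (chr9:120571502-120571531, plus strand): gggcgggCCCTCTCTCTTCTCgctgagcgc
The longest run was 14 bases in Rpl14, 10 in Rpl38, 9 in Rps27 and Rpl13, 8 in Rpl39, 7 in Rpl10a, 6 in Rps2, 5 in Rpsa and 4 in Rps28, Rpl37a, Rpl35a and Rps19. A promoter was listed for 65 members. A run of at least 8 bases lay in this window in 25 of them (38.5%), against 11.9% of all 27025 promoters listed. It was present in 10 of 20 members with the shortest coding sequences and in 8 of 20 with the longest (the short and long classes of the core members by coding length). In the window from 250 bases before to 50 after the start, CTTTCC occurred on the coding strand in 24 members (36.9%, all promoters 14.0%) and CTCTTTCC, which contains it, in 7 (10.8%, all 1.4%). CCGGAAGT, on either strand, occurred in 12 members (18.5%, all 4.0%). CCATCTTG and CCGCCATC, also on either strand, occurred in 3 members each (4.6%), against 2.2% and 1.7% of all promoters. These are matches of letters and were not tested as sites.

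Levels were compared as CPM per kilobase of mRNA, since longer mRNAs give more fragments. Over the 24 libraries the highest mean levels were those of Rplp1, an acidic protein of the P-stalk that recruits elongation factors, at 430.4 CPM per kb, and of the small-subunit protein Rps15 at 298.6. The large-subunit proteins Rpl13, Rpl41 and Rpl3 followed at 293.4, 282.4 and 272.8 CPM per kb. The median member was at 109.7 CPM per kb. The choice of length moves some members: per kilobase of coding sequence Rpl41, whose coding sequence is 75 bases long, came first at 1646 CPM per kb, ahead of Rplp1 at 627.9, and Rps20 went from rank 77 to rank 45.

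The lowest members were 3 paralogs and 2 core proteins. Rpl39l, a paralog known from the testis, had 0 to 3 counts per library, and Rpl3l, a paralog known from heart and skeletal muscle, had 0 to 9. Rps27rt had 0 to 15 counts. Rpl9, a core protein of the large subunit, had only 14 to 47 counts (mean 1.67 CPM per kb), and Rpl12, which lies at the base of the stalk, had 148 to 250 (5.94 CPM per kb). Rpl39l and Rpl3l stood at or near the floor and did not pass the filter on low counts, which 82 or 83 members passed in each comparison.

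The other paralogs were expressed beside their parents. Per kilobase of coding sequence, Rpl36al stood at 87.4 CPM and Rpl36a at 85.3 CPM. Rpl22l1 stood at 66.8 against 138.6 for Rpl22, and Rpl7l1 at 40.0 against 177.6 for Rpl7. Rps27l, described as a p53-inducible form, stood at 14.0 against 49.3 for Rps27. Windows shared with other genes made up 98.4% of Rps27 and 0% of Rps27l, and 83.6% of Rpl36a and 59.0% of Rpl36al. These comparisons therefore also depend on how reads with several matches were treated. The plot of levels orders 81 members by CPM per kilobase of mRNA.

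**Figure D1:**
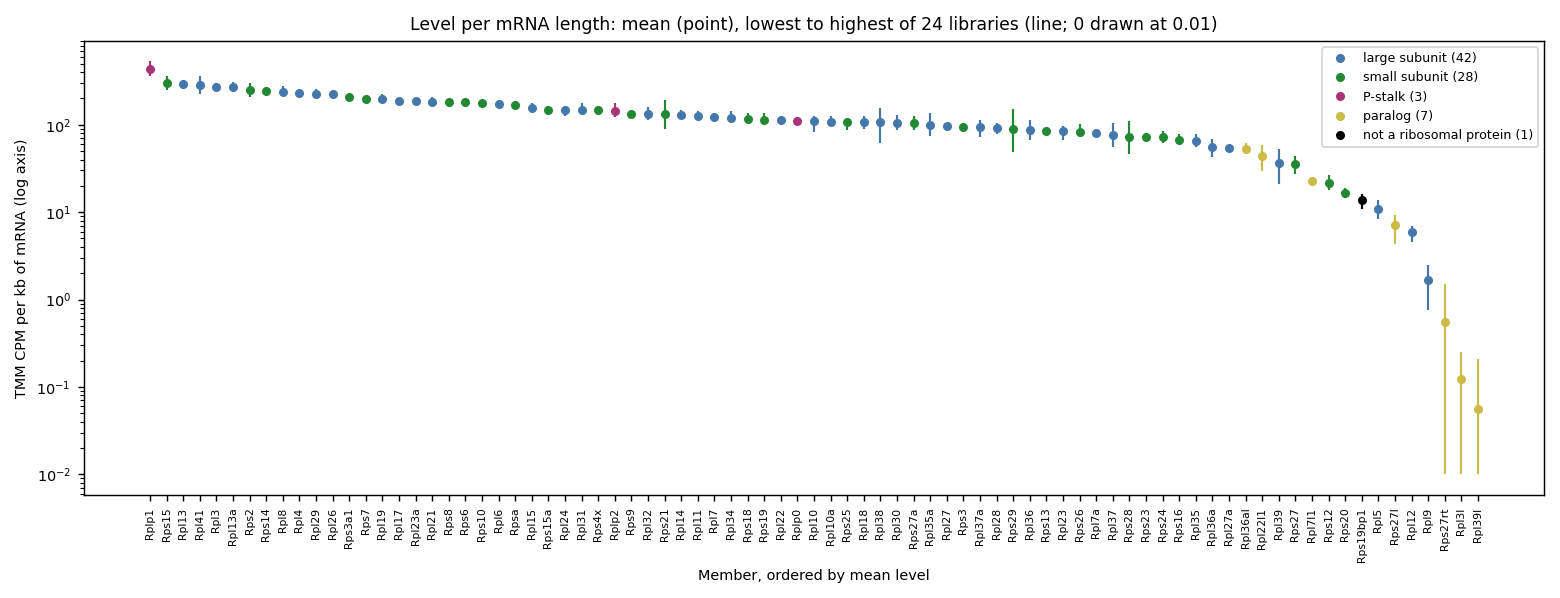
Level of 81 of the 85 members in CPM per kilobase of mRNA (log axis), ordered by mean. Points are means over 24 libraries, lines run from the lowest to the highest library, and colours give the subunit. Most members lie near the median of 109.7, and Rpl39l, Rpl3l, Rps27rt and Rpl9 lie far below it.

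The members differed in how tightly they were held within groups. Among those of at least 10 CPM, the SD of log2 CPM within groups was highest for Rps29 (0.326), Rps28 (0.269) and Rpl38 (0.249), all with short coding sequences. It was lowest for Rpl3 (0.0301), Rps6 (0.0312), the main phosphorylated protein of the small subunit, and Rpl4 (0.0330). When the 77 core members were ordered by coding length and split into 3 classes, the median SD was 0.134 in the short class (26 members, 75 to 405 bases), 0.0803 in the middle class (26 members, 405 to 576 bases, of which 24 reached 10 CPM) and 0.0655 in the long class (25 members, 582 to 1257 bases). All 9907 genes of at least 10 CPM had a median of 0.0873. The classes also differed in level, with a median CPM of 56.86 in the short, 84.06 in the middle and 155.7 in the long class. Length and level were not separated here.

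The short members also moved together from library to library. Over the 24 libraries, deviations from the group means had a median Pearson r of 0.674 over the 325 pairs within the short class and of 0.438 over the 300 pairs within the long class. Between the short and the long class it was 0.254 over 650 pairs. These pairs share libraries and scaling, and the values are a description. Of the 26 shortest members, 11 had their highest value in male SNI mPFC replicate 1 and 9 in male sham mPFC replicate 1, and 14 had their lowest in male SNI ACC replicate 1. The map of members by library shows these columns.

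**Figure D2:**
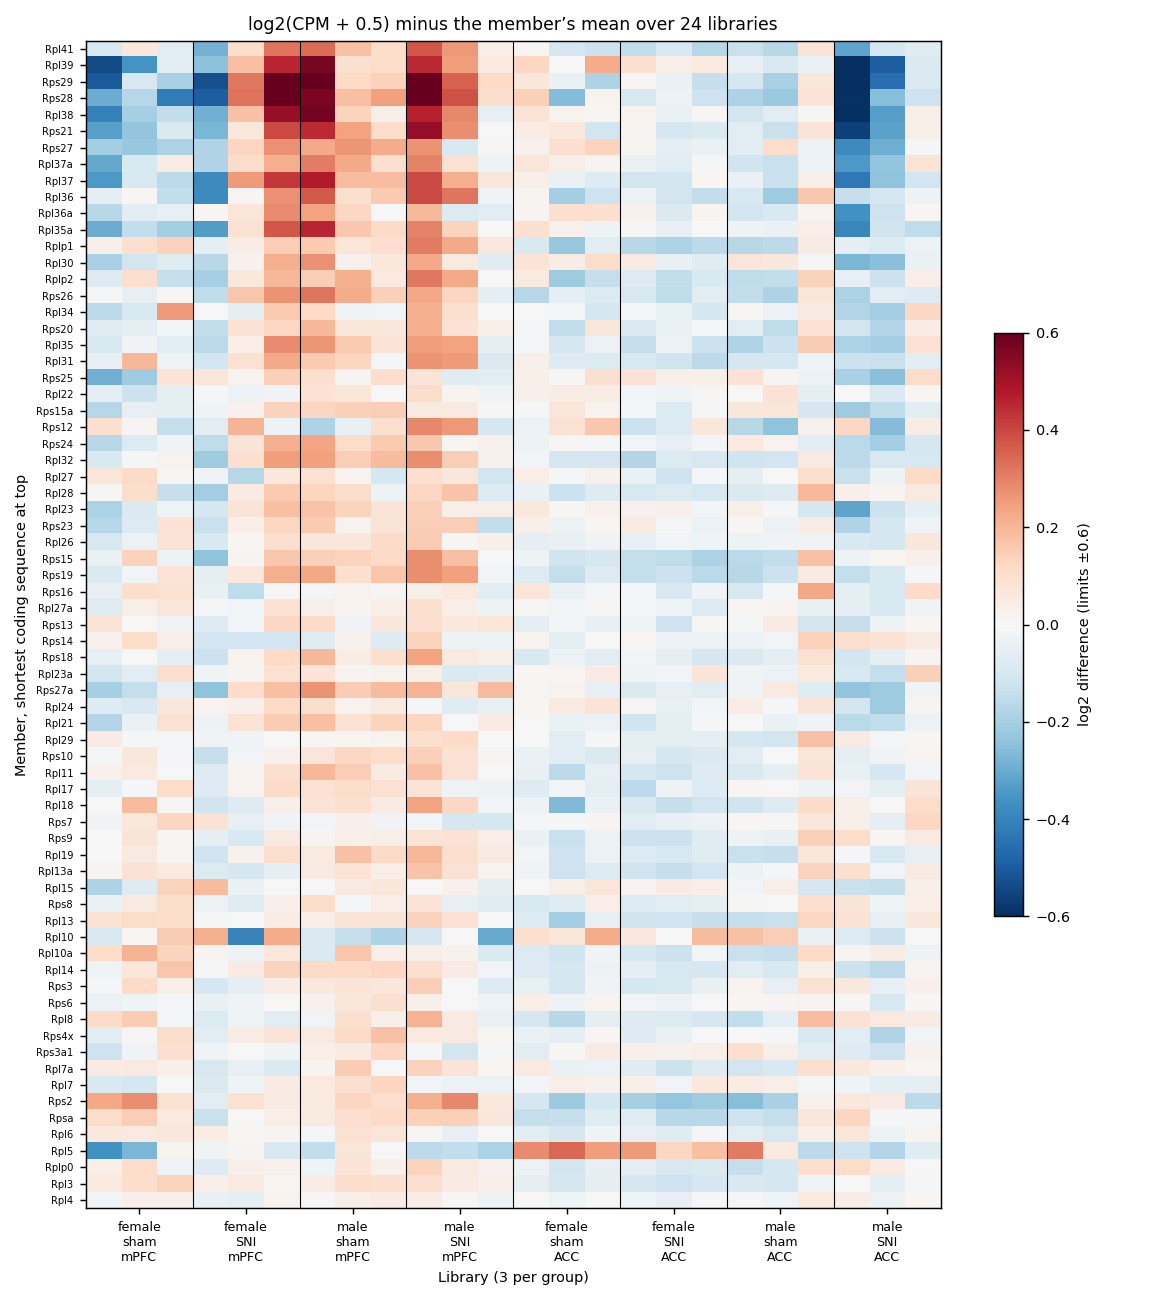
The map shows 71 core members of at least 10 CPM (rows, shortest coding sequence at the top) in the 24 libraries (columns, 3 per group). Colour is log2(CPM + 0.5) minus the member's mean, with limits of ±0.6. The strongest colours lie in the upper rows, with male SNI mPFC replicate 1 and male sham mPFC replicate 1 high and male SNI ACC replicate 1 low.

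About as many members were called between the mPFC and the ACC as not when all libraries were used, and nearly all of those called were higher in the mPFC. The fit over 24 libraries, with the 4 groups of sex and treatment as covariates, called 43 of 83 members at a false discovery rate (FDR) under 0.1 (edgeR quasi-likelihood test, Benjamini-Hochberg). Of these 42 were higher in the mPFC and 1, Rpl5, was higher in the ACC. Of all genes tested 48% were called, 23.9% as higher and 24.1% as lower, so the share called is near the background and the direction is not. The members' median log2 fold change was 0.08 against 0.00 for all genes. All 3 P-stalk proteins, 21 of 43 large-subunit and 18 of 31 small-subunit proteins were called higher, and none of the 5 paralogs tested was called. Rplp0, the base of the stalk, differed by 0.07 ± 0.03 (adjusted p = 0.0438, edgeR) and Rplp2, the partner of Rplp1, by 0.16 ± 0.05 (adjusted p = 0.0122). Rps27a, made as a fusion with ubiquitin, differed by 0.13 ± 0.05 (adjusted p = 0.0429). Leaving out each library gave 37 to 50 calls.

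The members with the smallest adjusted p were led by Rplp1, which differed by 0.22 ± 0.03 on the log2 scale (SE, edgeR, adjusted p = 1.475e-06). Its CPM was 206.2 at the lowest, 229 at the median and 265.1 at the highest of the 12 mPFC libraries, against 182.3, 196.3 and 221.3 in the 12 ACC libraries. Rpl3, a protein at the peptidyl transferase centre, was at 370.5, 383 and 403.3 in the mPFC against 338.1, 349.6 and 367 in the ACC (0.14 ± 0.02, adjusted p = 1.509e-06, edgeR). Rpl3 was the only member with all 12 mPFC libraries above all 12 ACC libraries. That is 1.2% of members, and 4.86% of the 18078 genes tested did not overlap between regions.

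Rps2, a small-subunit protein at the mRNA entry, was at 234.4, 262 and 299.7 CPM in the mPFC against 205, 216.7 and 256.4 in the ACC (0.26 ± 0.04, adjusted p = 1.951e-06, edgeR). Rpl14, of the large subunit, was at 128.8, 138.9 and 147.3 against 117.2, 123.4 and 134.5 (0.15 ± 0.03, adjusted p = 6.648e-05, edgeR). Rps19, which is mutated in Diamond-Blackfan anaemia, was at 67.7, 76.5 and 87.2 against 64.05, 65.7 and 74.6 (0.21 ± 0.04, adjusted p = 8.328e-05, edgeR). For each of these the medians differed while the ranges overlapped. Rpl5, which binds the 5S rRNA and with Rpl11 restrains Mdm2, went the other way. It was at 17.1, 20.3 and 23.2 CPM in the mPFC against 19.5, 24.6 and 28.2 in the ACC (-0.22 ± 0.06, adjusted p = 0.00289, edgeR).

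The number of members with a higher mean in the mPFC varied with the group. In the female sham groups 46 of 83 members had a higher mean in the mPFC, where 48.8% of all genes did. With SNI 73 of 83 did in females (all genes 50.4%). Among males it was 73 with sham surgery (51.0%) and 72 with SNI (52.1%). The members' median log2 difference was 0.02 for female sham, 0.08 for female SNI, 0.10 for male sham and 0.13 for male SNI mice. These groups were not tested against each other in this count. The plot of 8 members by library shows the levels.

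**Figure D3:**
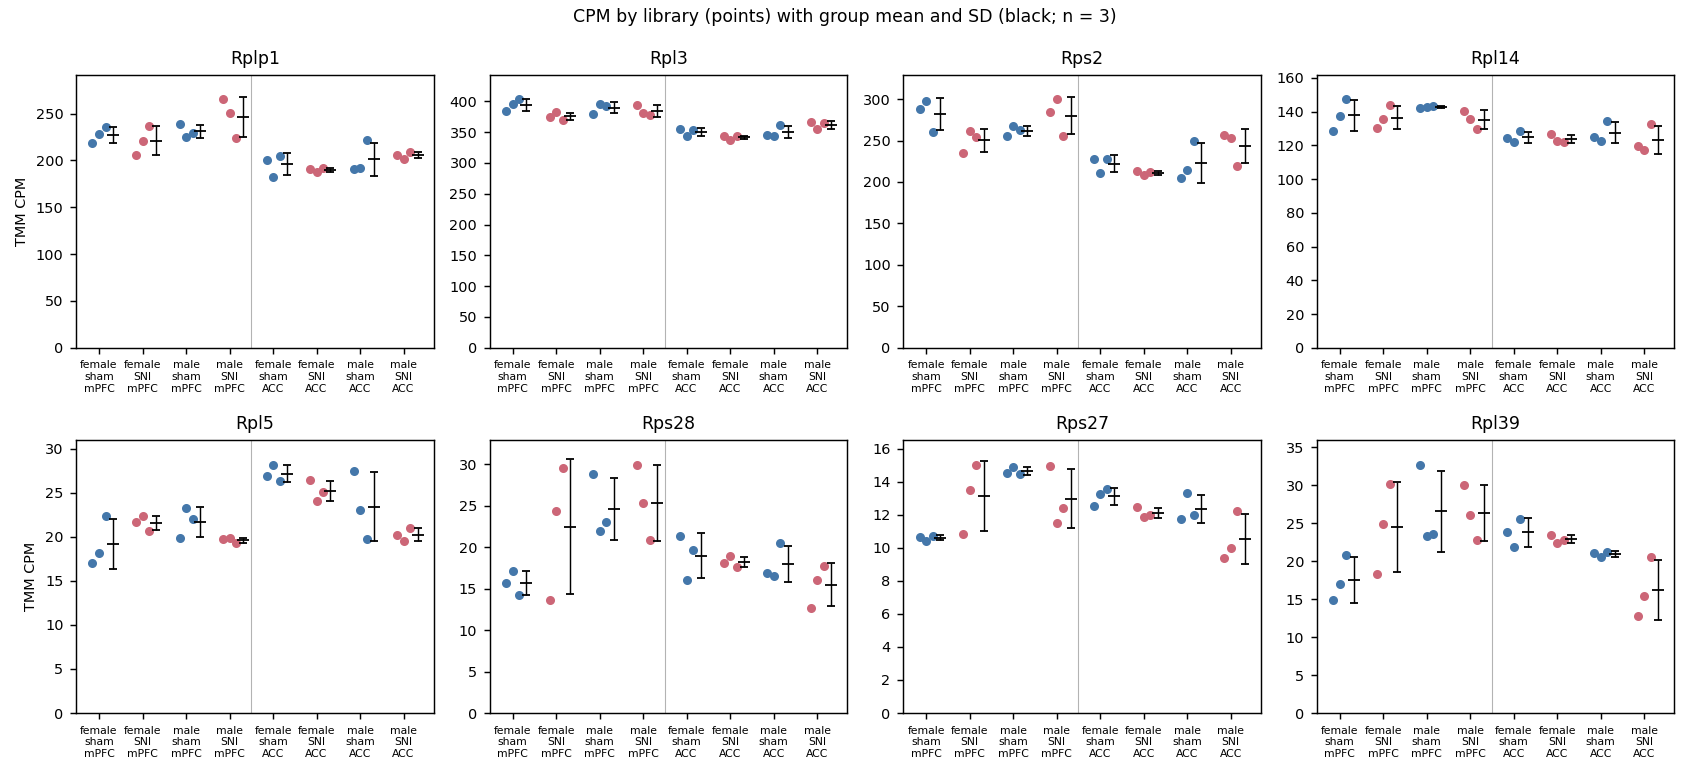
TMM CPM of 8 members (panels) in the 24 libraries (points, blue sham and red SNI), with group mean and SD in black (n = 3) and an axis from 0. Rplp1, Rpl3, Rps2 and Rpl14 lie higher in the mPFC groups on the left, Rpl5 lies lower there, and Rps28, Rps27 and Rpl39 are lowest among mPFC groups in the female sham mPFC.

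Markers of cell types moved with region in the same fit. Of the 4 neuronal markers 3 were lower in the mPFC and 1 was higher. Their summed level was 3709 to 4422 CPM in the mPFC and 4512 to 5147 CPM in the ACC. Of the 6 excitatory neuron markers 2 were lower and 1 was higher. Lower in the mPFC were 5 of 6 inhibitory neuron markers (1 was higher), whose summed level was 711 to 812 CPM in the mPFC and 816 to 929 CPM in the ACC. Of the oligodendrocyte markers 7 of 10 were lower and none higher (1129 to 3936 against 2592 to 4263 CPM), and of the astrocyte markers 7 of 8 were lower and 1 higher (4852 to 5662 against 5263 to 6189 CPM). All 6 endothelial and all 6 meningeal fibroblast markers were lower. Of the microglia markers 5 of 8 were higher and none lower (318 to 352 against 303 to 344 CPM). None of these lists had a marker at 0 in every library, and their part in the result was not tested.

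In the females, the share of members called between the sham mPFC and the sham ACC did not exceed that of all genes. Of 82 members 19 were called (23.2%), 11 higher and 8 lower in the mPFC, while 28.5% of all genes were called, 14% as higher and 14.5% as lower. At an unadjusted p under 0.05 there were 13 higher and 11 lower (34.4% of all genes). The median log2 fold change of the members was 0.03 against 0.00 for all genes. Higher in the mPFC were Rps2, Rpsa (the laminin receptor protein of the small subunit), Rpl10a, Rpl13 and Rplp1, and, among the others called, Rpl3, Rpl8, Rpl13a and Rpl6. Lower were Rpl5, Rpl39 (at the exit tunnel), Rpl35a, Rpl38 (known for its part in translating Hox mRNAs) and Rps27, and also Rpl30, Rpl22l1 and Rps21.

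Rps2 was at 288, 298 and 261 CPM in the female sham mPFC against 228, 211 and 228 in the female sham ACC (0.36 ± 0.07, adjusted p = 0.00442, edgeR). Rpl5 was at 17.1, 18.2 and 22.4 CPM against 27.0, 28.2 and 26.3 (-0.49 ± 0.10, adjusted p = 0.00606, edgeR). Rpl39 was at 14.9, 16.95 and 20.8 CPM against 23.9, 21.8 and 25.6 (-0.43 ± 0.11, adjusted p = 0.0224, edgeR). In all 3 the groups did not overlap. In this comparison 21 of 83 members had all mPFC libraries above all ACC libraries and 12 had all below. For all genes these shares were 16.6% and 19.2%, so such separation is common here. For the other leading members the log2 fold changes were 0.23 ± 0.05 for Rpsa, 0.24 ± 0.06 for Rpl10a, 0.22 ± 0.06 for Rpl13 and 0.22 ± 0.06 for Rplp1, and -0.24 ± 0.06 for Rpl35a, -0.28 ± 0.08 for Rpl38 and -0.30 ± 0.08 for Rps27 (SE). Single libraries moved the count: it was 9 without female sham ACC replicate 2, 8 without female sham mPFC replicate 2, 11 without female sham ACC replicate 3 and 37 without female sham mPFC replicate 3.

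In the males, the same regions differed almost wholly in one direction. Of 82 members 19 were called, 17 higher and 2 lower in the mPFC. Of all genes 14.2% were called, 7.46% as higher and 6.7% as lower. The median log2 fold change was 0.11 against 0.01 for all genes. Among the leading members were Rpl37a, Rps28, Rps26 and Rpl37, of the short coding class. Rpl37a was at 64.0, 60.6 and 55.3 CPM in the male sham mPFC against 47.55, 47.1 and 50.5 in the male sham ACC (0.32 ± 0.07, adjusted p = 0.0178, edgeR). Rps28 was at 28.8, 21.9 and 23.0 CPM against 16.9, 16.5 and 20.45 (0.46 ± 0.12, adjusted p = 0.0281, edgeR). Neither overlapped between the groups. In this comparison 31 of 83 members had all mPFC libraries above all ACC libraries and 2 had all below. Of all genes 14.1% had all mPFC libraries above, so separation of a single gene is common here too.

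The log2 fold changes were 0.33 ± 0.08 for Rps26 and 0.34 ± 0.09 for Rpl37 (SE, adjusted p = 0.0287 and 0.0297, edgeR). The members called lower were Rpl10, which completes the large subunit (-0.23 ± 0.07, adjusted p = 0.0758, edgeR), and Rps27l (-0.43 ± 0.14, adjusted p = 0.088, edgeR). Rpl10 turned to 0.20 when the counts of its pseudogene rows were added to it. The count of members called was 3 without male sham ACC replicate 1, 2 without male sham mPFC replicate 1, 2 without male sham ACC replicate 2, 4 without male sham mPFC replicate 2 and 8 when replicate 3 of that group was left out, but 50 when male sham ACC replicate 3 was left out. With a GC content offset it was 40.

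Rpl39, Rps27, Rpl35a and Rps21 were called lower in the mPFC in females and higher there in males. Rps27 was at 10.6, 10.4 and 10.7 CPM in the female sham mPFC against 12.5, 13.2 and 13.6 in the female sham ACC. In males it was at 14.5, 14.9 and 14.5 against 11.8, 13.3 and 12. The groups did not overlap in either sex and their order was opposite. Of all genes, 19.2% had all mPFC libraries below all ACC libraries in sham females. In sham males 14.1% had all of them above. The difference itself was tested as a sex by region interaction over the 12 sham libraries, a fit chosen after the data were seen. No member was called among 82 (all genes 0.0115%, edgeR), nor by DESeq2. The value tested was the mPFC minus ACC difference in females minus that in males. At an unadjusted p under 0.05 this value was positive for 0 members and negative for 23 (7.29% of all genes). Rps27 had the smallest p, with a difference of -0.55 ± 0.10 (adjusted p = 0.403, edgeR), and the next was Rpl35a at -0.52 ± 0.11 (adjusted p = 0.628, edgeR). Without the filter on low counts 10 members were called, all with a lower mPFC minus ACC difference in females.

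Sham females and males were then compared within each region. These comparisons reuse the sham libraries above. In the mPFC 2 of 82 members were called, both lower in females, where 0.177% of all genes were called, 0.0769% as higher and 0.101% as lower. Rps27 was at 10.6, 10.4 and 10.7 CPM in females and at 14.5, 14.9 and 14.5 in males (-0.46 ± 0.08, adjusted p = 0.065, edgeR). Rps28 was at 15.6, 17.1 and 14.3 CPM in females and at 28.8, 21.9 and 23.0 in males (-0.64 ± 0.11, adjusted p = 0.065, edgeR). In both the groups did not overlap, and the share of all genes without overlap was not counted for this comparison. At an unadjusted p under 0.05 there were 30 lower and 1 higher, against 10.6% of all genes in both directions, and the members' median was -0.09 against 0.01 for all genes.

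This count changed with single libraries. It was 0 without female sham mPFC replicate 1 or male sham mPFC replicate 1, 1 without female sham mPFC replicate 2, male sham mPFC replicate 2 or male sham mPFC replicate 3, and 36 without female sham mPFC replicate 3. It was 12 with DESeq2, 18 without the filter on low counts and 0 with a gene length offset. No marker list in this comparison had more than 1 gene called. In the ACC no member was called among 82 (all genes 0.0958%, with 0.0539% higher and 0.0419% lower, edgeR), nor by DESeq2, and 1 was higher and 0 lower at an unadjusted p under 0.05 (6.64% of all genes). Rpl39 differed by 0.18 ± 0.08 (adjusted p = 0.74, edgeR), Rpl37a by 0.13 ± 0.06 (adjusted p = 0.75), Rps27l by -0.28 ± 0.15 (adjusted p = 0.771) and Rpl13a by -0.11 ± 0.06 (adjusted p = 0.78).

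SNI against sham asks whether the nerve injury changed these mRNAs. No member was called in any of the 4 pairs of groups by edgeR or by DESeq2. The share of all genes called was 0.00592% for the female mPFC and 0.494% for the male mPFC. For the ACC it was 0.024% for females (0.018% as lower) and 0.00599% for males. At an unadjusted p under 0.05 there were 11 higher and 4 lower of 82 members in the female mPFC (12.1% of all genes) and 1 and 4 of 82 for males (11.2%). For the ACC there were 0 and 4 of 83 in females (6.67%) and 0 and 9 of 82 in males (4.48%). The members' medians were 0.03, -0.01, -0.04 and -0.04 on the log2 scale, against 0.00, 0.00, 0.00 and -0.01 for all genes. Leaving out female sham mPFC replicate 3 gave 8 calls in the female mPFC, without female SNI mPFC replicate 1 it gave 1, and the male ACC gave 13 once male sham ACC replicate 3 was left out. Without the filter on low counts the female mPFC gave 8.

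In the female mPFC the smallest p among members with a positive difference were those of Rpl39 and Rpl22l1. Rpl39 was at 14.9, 16.95 and 20.8 CPM in sham and at 18.3, 24.8 and 30.2 in SNI (0.48 ± 0.16, adjusted p = 0.401, edgeR). The groups overlapped. Rpl22l1, a paralog that Rpl22 is known to repress, was at 18.2, 18.8 and 25.5 CPM in sham and at 25.9, 23.9 and 30.6 in SNI (0.36 ± 0.13, adjusted p = 0.401, edgeR). On the other side Rps14 was at 149, 158 and 149 CPM in sham and at 135 in each of the 3 SNI libraries (-0.17 ± 0.06, adjusted p = 0.401, edgeR), and Rps2 at 288, 298 and 261 against 234, 261 and 255 (-0.17 ± 0.07, adjusted p = 0.407, edgeR). Rps14 did not overlap between the groups, and the share of all genes without overlap was not counted for SNI against sham. None of the 10 oligodendrocyte markers was called, but their median was -0.54, with a summed level of 1129 to 2831 CPM in SNI, lowest in replicate 1, against 3007 to 3460 in sham, and their part in these values was not tested.

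In the male mPFC 8 of 10 oligodendrocyte markers were called lower with SNI and none higher (median -0.51), and their summed level was 2034 to 2945 CPM in SNI against 3421 to 3936 in sham. Of the 8 astrocyte markers 1 was lower (4862 to 5230 CPM in SNI against 4852 to 5381 in sham), and no gene of the other marker lists was called. None of these oligodendrocyte or astrocyte markers was at 0 in every library, and their part in the members' values was not tested. For the members the values were 0.68 ± 0.29 for Rpl9 (adjusted p = 0.387, edgeR), 0.22 ± 0.11 for Rps12 (adjusted p = 0.495, and -0.01 with its pseudogene rows added), -0.12 ± 0.04 for Rpl7 (adjusted p = 0.28) and -0.11 ± 0.05 for Rps3a1 (adjusted p = 0.384). In the female ACC they were 0.03 ± 0.04 for Rps3a1 (adjusted p = 0.908), 0.02 ± 0.04 for Rpl8 (adjusted p = 0.962) and -0.62 ± 0.26 for Rpl9 (adjusted p = 0.707). In the male ACC they were 0.47 ± 0.27 for Rpl9, 0.12 ± 0.09 for Rps2, -0.24 ± 0.08 for Rpl30 and -0.43 ± 0.16 for Rpl22l1, all at an adjusted p of 0.768. Rpl9 rests on 14 to 47 counts per library. Rpl30 was at 63.4, 63.1 and 59.8 CPM in the male sham ACC and at 49.7, 50.5 and 58.5 in the male SNI ACC, without overlap. The share of all genes without overlap was not counted here either.

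With both sexes in one fit and sex as a covariate, no member was called in either region by edgeR or DESeq2, and no gene at all (0%). In the mPFC 2 members were higher and 0 lower at an unadjusted p under 0.05 (7.33% of all genes), and in the ACC 0 and 13 (5.56%). The ACC median was -0.02 against -2e-04 for all genes, and 67 of 83 members had a negative difference. In the separate ACC fits 73 of 83 members were negative in females and 57 of 82 in males. The share of all genes with a negative difference was not counted, and the members share libraries and scaling. Without the filter on low counts 4 members were called in the mPFC. In the mPFC Rps27l stood at 0.29 ± 0.13 (adjusted p = 0.655, edgeR), Rpl9 at 0.42 ± 0.19 (adjusted p = 0.66), Rpl10a at -0.09 ± 0.05 (adjusted p = 0.732) and Rpl7l1 at -0.07 ± 0.04 (adjusted p = 0.827). In the ACC Rpl30 stood at -0.16 ± 0.05 and Rps15a at -0.11 ± 0.04 (adjusted p = 0.814 for both, edgeR) and Rpl6 at 0.04 (adjusted p = 0.821).

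Whether the SNI effect differed between the sexes or regions was tested with 4 interactions over 12 libraries each. No member and no gene (0%) was called by edgeR, and no member by DESeq2. At an unadjusted p under 0.05, 10 members were higher and 3 lower for sex in the mPFC (15.8% of all genes), 0 and 1 for sex in the ACC (5.92%), 11 and 2 for region in females (11.1%) and 0 and 0 for region in males (3.19%). For sex in the mPFC, as female minus male, Rps27 stood at 0.48 ± 0.16 (adjusted p = 0.221, edgeR), Rps15a at 0.24 ± 0.08 (adjusted p = 0.22), Rps14 at -0.24 ± 0.08 (adjusted p = 0.221) and Rps2 at -0.27 ± 0.09 (adjusted p = 0.225). For sex in the ACC, Rpl9 stood at -1.10 ± 0.37 (adjusted p = 0.753, edgeR). For region in females, as mPFC minus ACC, Rps27 stood at 0.43 ± 0.14, Rpl36a at 0.31 ± 0.10 and Rps14 at -0.17 (adjusted p = 0.428 each, edgeR). For region in males, Rps27l stood at 0.45 and Rpl10 at 0.17 (adjusted p near 1). The interactions reuse the libraries of the comparisons above. Without female sham mPFC replicate 3 the calls were 11 for sex in the mPFC and 9 for region in females, and leaving out male sham ACC replicate 3 gave 7 for sex in the ACC. Without the filter on low counts they were 9 and 8 for the same interactions of the mPFC and of females.

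In several comparisons, but not in all, the log2 fold changes of the members were ordered by coding length. Spearman's rho between coding length and log2 fold change over the 77 core members under SNI was -0.677 for the female mPFC, -0.081 for the male mPFC, 0.272 for the female ACC and 0.549 for the male ACC. It was 0.502 for region in sham females, -0.545 for region in sham males, 0.674 for sex in the sham mPFC, -0.378 for sex in the sham ACC and -0.459 for region over 24 libraries. Over other protein-coding genes rho was nearer 0. It was -0.015 (n = 14376), -0.054, 0.011 and 0.04 for the 4 SNI comparisons in the same order, 0.076 for region in sham females, 0.012 for region in sham males, 0.096 for sex in the sham mPFC, -0.023 for sex in the sham ACC and 0.033 for region over 24 libraries. These are descriptions across genes, which share libraries and are not independent, and the comparisons share groups.

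In the female mPFC under SNI, 25 of the 26 shortest members had a positive difference, with a median of 0.14 against -0.05 in the long class. This median was 0.07 without female SNI mPFC replicate 3, with 19 of 26 positive, and 0.24 without female SNI mPFC replicate 1. In the female ACC under SNI, 2 of the 26 shortest members had a positive difference. So did 3 of 26 in the middle class and 4 of 25 in the long class. In the male ACC under SNI 2 of the 26 shortest and 14 of 25 in the long class had a positive difference, with medians of -0.10 and 0.01. The short median there was -0.04 without male SNI ACC replicate 1 and -0.20 without male SNI ACC replicate 3. For region in sham males all 26 were positive (0.24 against 0.08), and for sex in the sham mPFC 1 of 26 was positive (-0.24 against 0.00). Other coding genes of the same length as the short class had a median of 0.02 (n = 712) for SNI in the female mPFC, -0.05 for SNI in the male ACC, 0.01 for region in sham males and -0.04 for sex in the sham mPFC. For region in sham females it was -0.07, beside -0.11 for the short members. Leaving out each library gave a rho of -0.749 to -0.489 for SNI in the female mPFC and of 0.35 to 0.651 in the male ACC. In the male mPFC rho ran from -0.464, without male sham mPFC replicate 1, to 0.301, without male SNI mPFC replicate 1, and it was also positive without male sham mPFC replicate 2 (0.202) or replicate 3 (0.233). With a gene length offset the rho for SNI in the female mPFC was -0.513. The plot of fold change by coding length gives every core member.

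**Figure D4:**
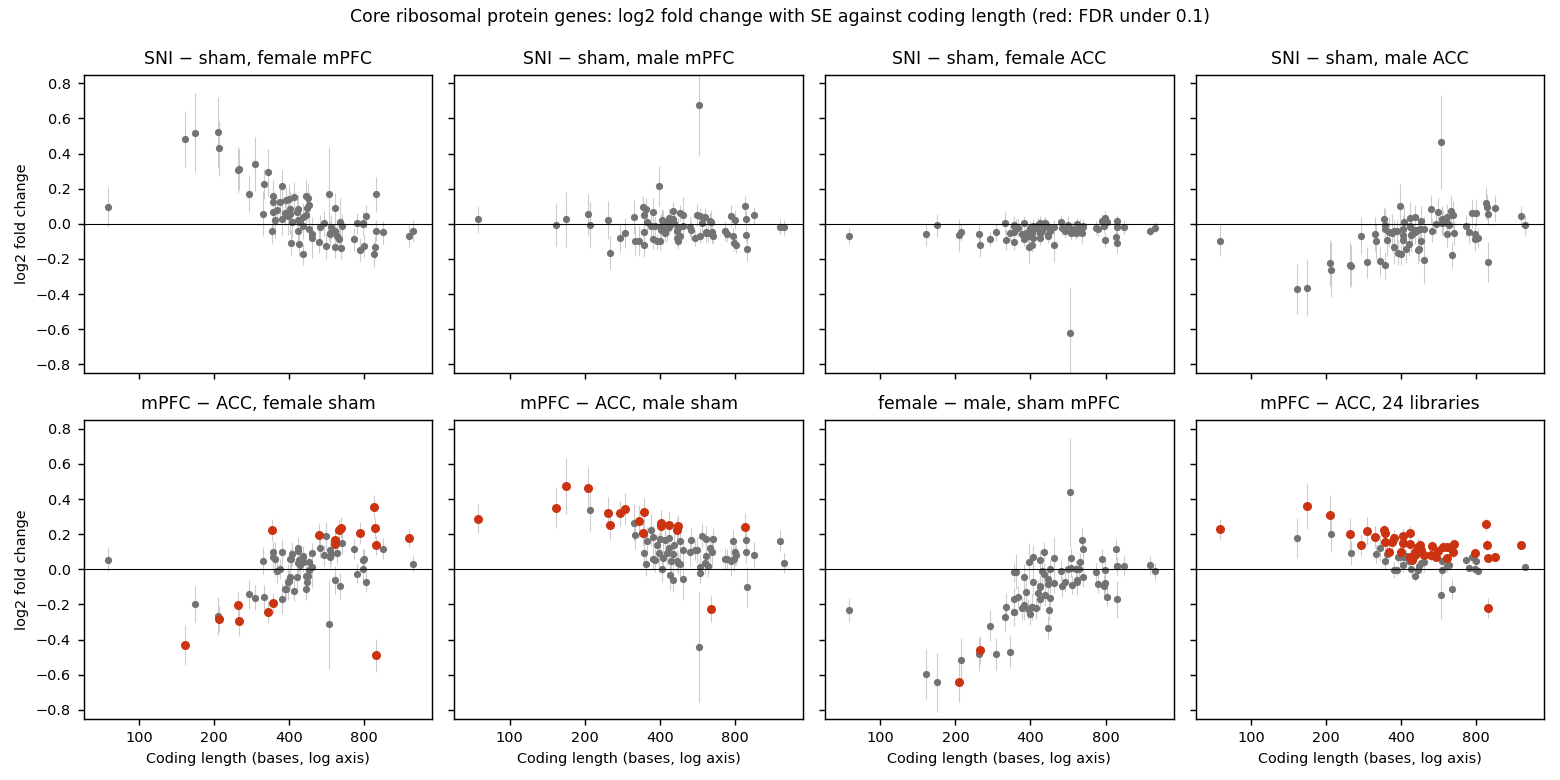
Log2 fold change (with SE) of the core members against coding length in bases (log axis) in 8 comparisons; red points passed FDR under 0.1. The points fall with length for SNI in the female mPFC (rho -0.677) and for region in males (-0.545), and rise for SNI in the male ACC (0.549), region in females (0.502) and sex in the mPFC (0.674).

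In summed CPM, the 26 shortest members stood at 1417, 1528 and 1543 in the female sham mPFC and at 1402, 1661 and 1867 in the female SNI mPFC. In the mPFC of males they stood at 1894, 1709 and 1683 with sham surgery and at 1913, 1753 and 1572 with SNI. Thus 2 of the 3 female SNI mPFC libraries were above all female sham ones, and the male groups overlapped. In the ACC the sums were 1571, 1504 and 1532 in female sham, 1499, 1476 and 1490 in female SNI, 1493, 1474 and 1599 in male sham and 1337, 1388 and 1539 in male SNI. The female ACC groups did not overlap but nearly met, at 1499 for the highest SNI and 1504 for the lowest sham library. The male ACC groups overlapped. How often sums over other genes separate in this way was not counted.

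The log2 ratio of the summed CPM of the short class to the long class was -1.58 ± 0.0372 (SD, n = 3) in the female sham mPFC and -1.39 ± 0.182 in the female SNI mPFC. For the mPFC of males it was -1.36 ± 0.119 with sham surgery and -1.35 ± 0.0898 with SNI. For the ACC the ratio was -1.44 ± 0.0310 in female sham, -1.46 ± 0.0107 in female SNI, -1.48 ± 0.0070 in male sham and -1.60 ± 0.114 in male SNI. Single libraries ran from -1.72 in male SNI ACC replicate 1 to -1.22 in male sham mPFC replicate 1.

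**Figure D5:**
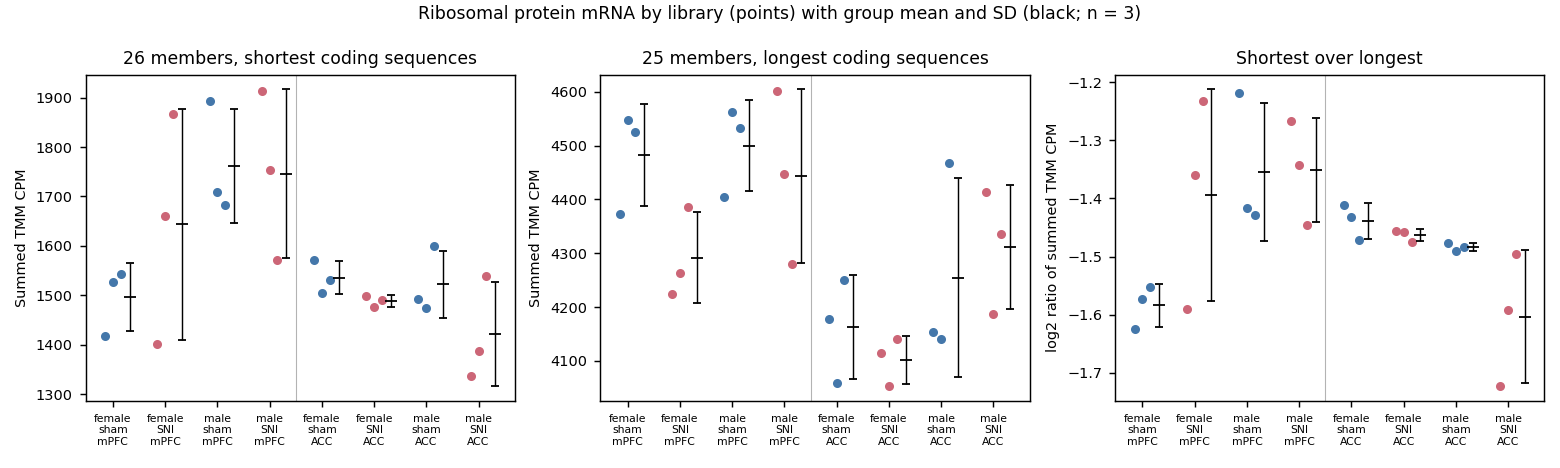
Summed TMM CPM of the 26 core members with the shortest coding sequences (left) and the 25 with the longest (middle), and the log2 ratio of the sums (right), in the 24 libraries. Points are libraries, blue sham and red SNI, and black bars are the group mean and SD (n = 3). In the right panel the female sham mPFC lies low among the mPFC groups at -1.58.

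Other genes of protein synthesis did not all follow the members. In the fit of region over 24 libraries, 2 of 3 ribosomal or associated proteins with other names (Fau and Rack1 among them) were called higher in the mPFC, with a median log2 fold change of 0.12. Of 20 other TOP mRNAs 5 were higher and 2 lower (median 0.01), of 53 initiation factors 6 were higher and 17 lower (-0.01), and of 27 ribosome biogenesis genes 6 were higher and 4 lower (0.01). Of 78 mitochondrial ribosomal proteins 9 were higher and 17 lower (-0.01). Of 92 nuclear genes of oxidative phosphorylation none was higher and 43 were lower (-0.07). Of 17 regulators of mTOR and TOP mRNAs 3 were higher and 3 lower (0.00). Of the 151 ribosomal protein pseudogene rows 19 could be tested, and 10 were higher and none lower (0.22). Some of the reads in those rows may come from the parent genes, which the counts cannot tell apart. In the SNI comparisons none of these lists had a gene called.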

How the data were processed

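Bulk RNA-seq of 24 libraries was analysed, 3 for each sex, region and treatment, grouped by the titles in the labels. The authors trimmed the paired reads with Trimmomatic 0.36, removed reads that matched Rfam with Bowtie2 2.33, mapped the rest to GRCm38 with HISAT2 2.1.0 and counted reads per gene with HTSeq 0.9.1, and they deposited counts without normalization in 4 tables. The annotation release and the strand setting of the counting are not given in the sources used here, so overlapping genes may share reads. Symbols and lengths came from GENCODE mouse release M21, which held all 33364 identifiers. The members, lists and alternatives were chosen with earlier results of these data known.

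Counts were tested in edgeR 4.0.16 (R 4.3.3) with TMM factors, filterByExpr (count 10, total 15) and the legacy quasi-likelihood test, with Benjamini-Hochberg adjustment over all genes and a call at an FDR under 0.1. Each comparison of 2 groups used its own 6 libraries. The sex by region interaction and the settings of the coding-length correlation were added after the data were seen. Alternatives were DESeq2 1.42.0, RLE factors, no filter, the current quasi-likelihood method, GC content and gene length offsets, pseudogene rows added to their parent, a block for the replicate number and fits without each library in turn. The steps were tested on simulated data. Members named in the text are, in each comparison, at most the 5 called higher and the 5 called lower with the smallest adjusted p, or, with none called, the 2 on each side with the smallest p. Added to these are the 5 highest and lowest levels, the paralog pairs (Rpl10l and Rps4l were not analysed here) and the 3 most and least variable members. Other called members and members chosen to show a pattern were named after their values were seen. The depth of 23853845 to 32864391 counts per library limits precision for members near the floor of 3 counts. p-values measure the spread between pools. A few named members and genes are not reported here.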

Additional observations from a re-analysis of the deposited data

Results flagged for a closer look

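In the 4 groups of 6 libraries made of both sexes (sham or SNI in the mPFC or the ACC), 88 combinations of a quantity and a group were examined for a library far from the others, and 8 stood apart. The 22 quantities were summed levels and their ratio, the mitochondrial share of counts, the marker lists and members named in the fits over both sexes. Other members were not examined. Chance alone flags about 1 in 20 groups. Among the members examined, Rpl6 was at 216.6 CPM in male sham mPFC replicate 1, below the next lowest at 226.8. Rps27l was at 2.133 CPM in female sham mPFC replicate 1, below the next lowest at 3.022. The endothelial markers summed to 247 CPM in female SNI mPFC replicate 3 (next 222.8). The choroid plexus markers summed to 967.9 CPM in female sham ACC replicate 1 (next 10.85), to 82.61 in male SNI mPFC replicate 2 (next 6.888), to 8.702 in male SNI ACC replicate 1 (next 5.232) and to 4.724, the lowest value, in female sham mPFC replicate 1 (next 5.577). The red blood cell markers summed to 100.9 CPM in male sham mPFC replicate 1, the lowest of its group (next 123.2).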

How the results depend on the processing

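Of 298 counts of called members under another setting, 261 stayed within 1.5 times the reported count and 37 did not. Without the filter on low counts the count was 8 for SNI in the female mPFC, 4 for SNI in the mPFC of both sexes, 9 for the sex by SNI interaction in the mPFC, 8 for the region by SNI interaction in females, 10 for the sex by region interaction and 18 for sex in the sham mPFC. Sex in the sham mPFC also gave 12 with DESeq2, 5 with RLE factors, 6 with the current quasi-likelihood method, 10 with a GC content offset and 0 with a gene length offset, and region in sham males gave 40 with a GC content offset. Leaving out each library gave 0 to 8 calls for SNI in the female mPFC, 0 to 13 for SNI in the male ACC, 8 to 37 for region in sham females, 2 to 50 for region in sham males, 0 to 36 for sex in the sham mPFC, 0 to 11 and 0 to 7 for the sex by SNI interactions in the mPFC and ACC, and 0 to 9 for the region by SNI interaction in females. The cause was not tested. Among 1287 values of single members, 1214 kept direction and side of the threshold, 47 lost the call, 22 gained it and 4 changed sign: Rps12 for SNI in the male mPFC (-0.0136), Rpl10 for region in sham males (0.1996) and Rpl10 for the region by SNI interaction in males (-0.089), all with pseudogene rows added, and Rpl8 for SNI in the female ACC without female sham ACC replicate 2 (-0.0122, and up to 0.0465 without another library). Of 36 rank correlations with coding length under other settings, 31 kept their sign and moved by at most 0.1, and the 5 others, all with a gene length offset, kept their sign.

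Same-numbered libraries did not deviate together throughout: r ran from -0.569 to 0.4 between SNI and sham (6 of 12 pairs over 0.1), from -0.282 to 0.483 between the sexes (3 of 6) and from -0.338 to 0.341 between the regions (5 of 12), so the number was not taken to pair the samples. Whether same-numbered mPFC and ACC libraries came from the same animals is not given in the labels. With the replicate block, sex in the sham mPFC gave 6 calls, and 19 with a GC content offset added, and region in sham males gave 40 with both. Region gave 15 calls with the block in females, 17 in males and 41 over 24 libraries, and the block changed no other count of calls.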
